A study of Mus musculus with 36 samples.

Results

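Glucose handling in the heart was examined through 32 genes of glycolysis, glycogen metabolism and glucose transport, measured by RNA-seq in the whole hearts of 36 mice. The genes were chosen by name: every row of the deposited table of 25626 rows whose gene symbol is on the list was taken, which gave 33 rows for the 32 symbols. Aldoa, the muscle aldolase, is listed on 2 rows. Of the 33 rows, 31 passed the filter on low values (a normalised read count of at least 10 in at least 6 libraries) and were tested among 16273 genes. Aldoc, the brain aldolase, and the second Aldoa row did not pass it, with group means of 3.71 to 7.37 normalised counts for Aldoc and 1.87 to 4.79 for that row of Aldoa. The genotype cSirt4-Tg (Tg), which takes its name from Sirt4, a mitochondrial sirtuin, was set against the genotype Control (Con). Tg-TAC-MQ and Con-TAC-MQ mice had transverse aortic constriction (TAC), surgery that constricts the aorta so that the heart pumps against a higher pressure, and were given MitoQ (MQ), an antioxidant that collects in mitochondria. Tg-TAC and Con-TAC mice had TAC and vehicle, and Tg-Sham and Con-Sham mice had sham surgery and vehicle. Each of the 6 groups held 6 mice, per the series' design text, which asks by which pathways mitochondrial reactive oxygen species could worsen cardiomyopathy in these transgenic mice. The sources used here do not give the promoter of the transgene, the strain, the age and sex of the mice, the time after surgery or the dose of MitoQ.

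Cardiac muscle takes up glucose through the insulin-regulated transporter GLUT4 and the constitutive transporter GLUT1, phosphorylates it with hexokinase, and either stores it as glycogen, splits it to pyruvate in glycolysis or oxidises it in the pentose phosphate pathway. Most steps of glycolysis have several isoenzymes from separate genes. One form, such as PFKM, ENO3 or LDHB, prevails in adult heart or skeletal muscle, and another, such as PFKP, ENO1 or LDHA, is found in many tissues and in the developing heart. The adult heart draws most of its energy from fatty acids, and the loaded heart is known for a greater use of glucose.

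The libraries held 14834719 to 60010648 reads assigned to genes. Values are normalised read counts, which scale each library by 1 size factor, and differences are on the log2(value + 1) scale, first group minus second. Sirt4, which should check the genotype label, showed no detectable rise with the transgenic label. It averaged 349.2 ± 22.5 normalised counts in Tg-TAC-MQ and 353.2 ± 18.6 in Con-TAC-MQ, 361.8 ± 57.8 in Tg-TAC and 341.0 ± 49.6 in Con-TAC, and 377.2 ± 48.0 in Tg-Sham and 411.7 ± 96.6 in Con-Sham (SD, n = 6; exact permutation test, two-sided, adjusted p = 0.742 in each). It is not known here whether reads of the transgene fall on this row, and the genotypes below are those of the labels. In each library's name stands a number whose meaning is also not given. The 12 MitoQ libraries and replicate 6 of Con-TAC carried 20 or 21. The number was 29 in replicate 6 of Tg-TAC, 7 to 14 in the other 10 vehicle TAC libraries, and split evenly between 7 to 14 and 29 to 31 in the sham groups. Both of these replicates stood apart from their groups among the glucose genes: replicate 6 of Tg-TAC was the highest or lowest library of its group for 23 of the 31 tested members, and replicate 6 of Con-TAC for 21. Nppa, the atrial natriuretic peptide gene that marks load, had 3535 normalised counts in replicate 6 of Tg-TAC, against 94193 to 245197 in the other Tg-TAC libraries. It had 111264 in replicate 6 of Con-TAC, against 10111 to 59511 in the other Con-TAC libraries. Replicate 3 of Con-TAC-MQ was extreme for 26 members, replicate 5 of Tg-Sham and replicate 4 of Tg-TAC for 21 each and replicate 2 of Con-Sham for 18. Replicate 4 of Tg-TAC held the fewest reads and a summed level of 5 adipocyte markers of 33548, against at most 199.3 in any library of the other groups. Tissue identity was as labelled: 10 of 10 cardiomyocyte markers were detected, while 7 of a list of 8 skeletal muscle markers (Myh4 was not analysed here) summed to 32.9 to 105 normalised counts per library, and 3 of the 7 were below the filter.

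**Figure D1:**
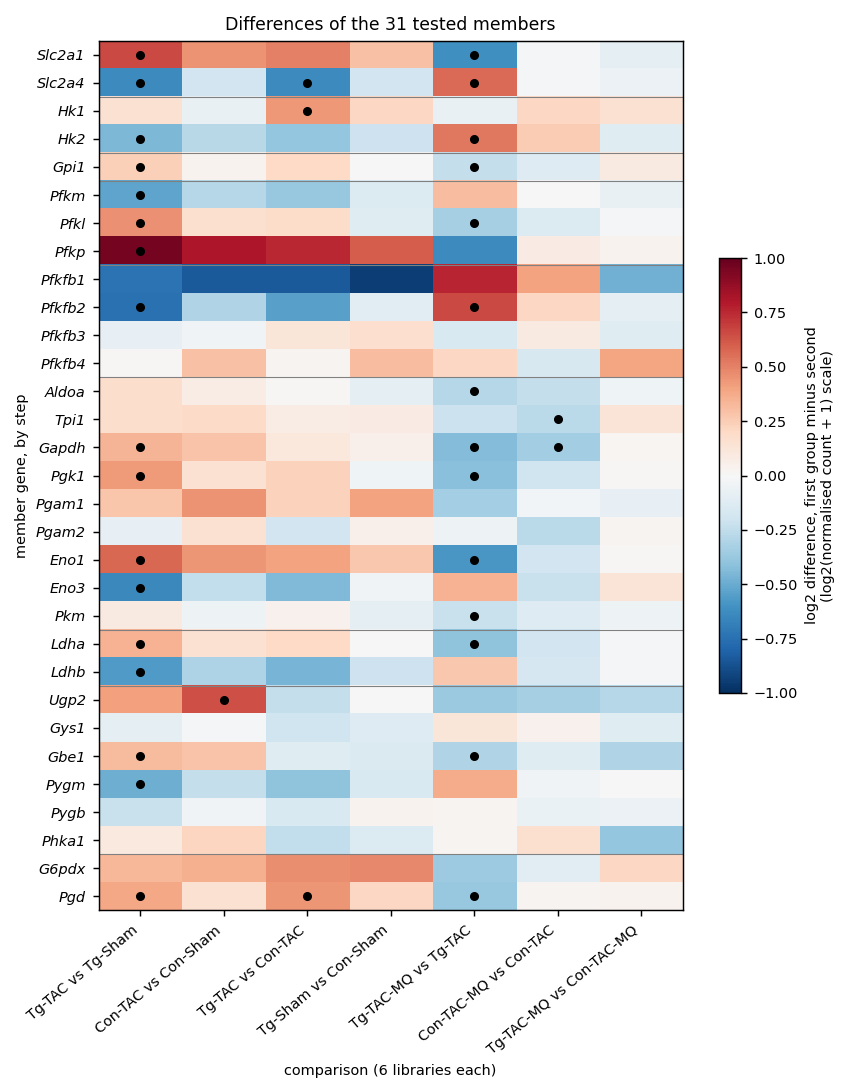
Log2 differences (colour, log2(normalised count + 1) scale, first group minus second) of the 31 tested members in the 7 comparisons, members ordered by step from transport to the pentose phosphate pathway and dots marking a limma adjusted p under 0.05. Tg-TAC against Tg-Sham carries 17 dots and Tg-TAC-MQ against Tg-TAC 14, while the columns of Tg-Sham against Con-Sham and Tg-TAC-MQ against Con-TAC-MQ carry none.

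Of the 7 comparisons, that of Tg-TAC with Tg-Sham hearts gave the most called members. In Tg-TAC 10 of the 31 tested members were called higher and 7 lower at a limma adjusted p under 0.05, where 7.91% of all genes were called higher and 8.78% lower. The higher members were the ubiquitous transporter Slc2a1, the enzymes Gpi1, Pfkp, Pfkl, Gapdh, Pgk1, Eno1 and Ldha, the glycogen branching enzyme Gbe1 and Pgd of the pentose phosphate pathway. The lower members were the muscle transporter Slc2a4, Hk2, the heart and muscle isoenzyme genes Pfkm, Eno3, Ldhb and Pygm, and Pfkfb2. The median difference over the 31 members was 0.16, against -0.01 over all genes tested. In bulk tissue, fewer cells of a type and less RNA per cell cannot be told apart. Of the cardiomyocyte markers 4 of 10 were lower in Tg-TAC than in Tg-Sham, and their summed level was 1080400.0 to 2701850.0 in Tg-TAC and 1959310.0 to 2342410.0 in Tg-Sham. Of the fibroblast markers 4 of 8 were higher, with summed levels of 37422 to 118267 in Tg-TAC and 40989.5 to 57546 in Tg-Sham. Load and stress markers, 3 of 5 of them higher, had summed levels of 87499 to 724753 in Tg-TAC and 156344 to 309037 in Tg-Sham. Smooth muscle markers, 2 of 4 of them higher, had 5991 to 12822 in Tg-TAC and 4294 to 9132 in Tg-Sham. The part of these markers and cell types in the members' differences was not tested. The 17 calls came to 4 when the fit held these 12 libraries alone, to 8 without replicate 4 of Tg-TAC and 9 without replicate 5, to 11 without replicate 1 of Tg-TAC or replicate 4 of Tg-Sham, and to 19 without replicate 6 of Tg-TAC. The share of all genes called is not given here for these fits or for those below that left out 1 library.

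Control hearts gave fewer calls. Between Con-TAC and Con-Sham 1 member was called, Ugp2, which makes UDP-glucose for glycogen, and it was higher; 2.64% of all genes were called higher there and 2.65% lower. The members' median difference was 0.15, against 0.01 over all genes. By limma 10 members and 3663 of all 16273 genes had an unadjusted p under 0.05. Among these 10 the larger differences beside that of Ugp2 were those of Pfkp (log2 0.81, SE 0.30, adjusted p = 0.0978), Pgam1 (log2 0.45, SE 0.18, adjusted p = 0.123) and Slc2a1 (log2 0.45, SE 0.22, adjusted p = 0.216), none past the threshold. With libraries brought to an equal sum of nuclear-genome reads, the median of all genes in this comparison moved to 0.11. The share of called genes that were higher moved to 83.6% from 49.9%. In that scaling 1116 of all 16273 genes were called. Of the members 5 were called, all higher. The count was also 5 without replicate 1 of Con-TAC, 2 without replicate 2 and 0 without replicate 4. Of the erythroid markers 5 of 6 were higher in Con-TAC, with summed levels of 3737 to 8415 in Con-TAC, against 1448 to 4401 in Con-Sham. Of 5 load and stress markers 4 were higher, with summed levels of 175859 to 647648 in Con-TAC, against 61037 to 117659 in Con-Sham. Their part in the members' differences was not tested. For the difference between the TAC effects of the genotypes, limma gave 2 members (Pfkl and Pgk1) an unadjusted p under 0.05. Over all 16273 genes, 948 had such a p. The difference was itself called by limma for 0 of 31 members and for 0 of all 16273 genes. By edgeR it was called for 0 members. More calls in Tg than in Con hearts is therefore not a shown difference of effect.

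Genotype alone gave 0 called members in sham hearts. Between Tg-Sham and Con-Sham 0.787% of all genes were called higher and 0.086% lower, and edgeR called 0 members. By limma 3 members and 2131 of all 16273 genes had an unadjusted p under 0.05. Those 3 were G6pdx (log2 0.48, SE 0.21, adjusted p = 0.302), Pgam1 (log2 0.40, SE 0.18, adjusted p = 0.313) and Pfkp (log2 0.60, SE 0.30, adjusted p = 0.381), all 3 higher in Tg-Sham by their estimate. Macrophage markers, of which 5 of 8 were higher in Tg-Sham, had summed levels of 10942 to 16248 in Tg-Sham and 5849.6 to 8149.6 in Con-Sham. Load and stress markers, with 1 of 5 called higher, had summed levels of 156344 to 309037 in Tg-Sham and 61037 to 117659 in Con-Sham. Fibroblast markers, with 1 of 8 called higher, had 40989.5 to 57546 in Tg-Sham and 26466 to 30220 in Con-Sham. The part of these markers in the members' values was not tested. Under MitoQ, 0 members were called between Tg-TAC-MQ and Con-TAC-MQ, where 0.0492% of all genes were called higher and 0.0246% lower. By limma 1 member, Gbe1, and 669 of all 16273 genes had an unadjusted p under 0.05, and edgeR called 0 members. After TAC with vehicle 3 members were called between Tg-TAC and Con-TAC, with 3.18% of all genes higher and 3.28% lower: Hk1 and Pgd were higher and Slc2a4 was lower in Tg-TAC.

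MitoQ went with a second large set of differences. Between Tg-TAC-MQ and Tg-TAC 11 members were called lower and 3 higher, where 9.89% of all genes were called higher and 7.44% lower. The lower ones were Slc2a1, Gpi1, Pfkl, Aldoa, Gapdh, Pgk1, Eno1, Pkm, Ldha, Gbe1 and Pgd, and the higher ones Slc2a4, Hk2 and Pfkfb2. The members' median difference was -0.21, against -0.00016 over all genes. This comparison shares its Tg-TAC libraries with that against Tg-Sham, so the opposite directions of the differences are not independent. Of the cardiomyocyte markers 2 of 10 were higher and of the fibroblast markers 2 of 8 lower in Tg-TAC-MQ. Their summed levels were 1913400.0 to 2063050.0 in Tg-TAC-MQ and 1080400.0 to 2701850.0 in Tg-TAC for cardiomyocytes, and 54849 to 63763 in Tg-TAC-MQ and 37422 to 118267 in Tg-TAC for fibroblasts, and their part was not tested. The 14 calls came to 9 without replicate 5 of Tg-TAC and to 22 without replicate 6. With an equal sum of nuclear-genome reads, 5 members were higher and 4 lower, the median of all genes moved to 0.10, and 85.3% of called genes were higher, against 57.1% with the deposited size factors. In control hearts 2 members were called between Con-TAC-MQ and Con-TAC, Tpi1 and Gapdh, both lower, with 1.92% of all genes higher and 1.31% lower. That count was 5 without replicate 6 of Con-TAC, 0 in 9 of the 12 fits that left out 1 library and 0 by edgeR. The share of called genes that were higher there was 84.5% with an equal sum of nuclear-genome reads and 59.5% with the deposited size factors. All MitoQ libraries carry the name number 20 or 21 and all vehicle TAC libraries but 1 another, so MitoQ and whatever the number stands for cannot be told apart. With the number's class as a covariate 7 of the 14 calls between Tg-TAC-MQ and Tg-TAC kept direction and call. In that fit 7 members were higher and 8 lower, with 15.7% of all genes called. Its term for 20 or 21 rested on replicate 6 of Con-TAC alone, the only vehicle library so named. The fit therefore cannot tell MitoQ from the number.

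Levels per kilobase of exon set the isoenzymes in order. In Con-Sham, Aldoa had 37647 ± 1350.3 normalised counts per kilobase, Ldhb 30876 ± 1625, Gapdh 27982 ± 724 and Eno3 25177 ± 1712 (SD, n = 6). Gapdh and Eno3 were closer to each other than either was to Aldoa. At the transport step Slc2a4 had 2478 ± 838 per kilobase in Tg-TAC and 4204 ± 230.4 in Con-Sham, and Slc2a1 had 251 ± 106 in Tg-TAC and 119.9 ± 12.7 in Con-Sham. Pfkm had 7292 ± 2961 per kilobase in Tg-TAC and 10922 ± 754 in Con-Sham, and Pfkp had 1146 ± 438 in Tg-TAC and 354 ± 52.1 in Con-Sham. Eno3 had 16809 ± 6660.2 per kilobase in Tg-TAC, and Eno1 1502 ± 372 in Tg-TAC and 819.9 ± 35.3 in Con-Sham. By group means the muscle form was the more abundant at these 3 steps in each of the 6 groups. Of the isoenzyme pairs, only Hk1 and Hk2 changed the order of their means between groups: Hk1 had 1759 ± 338 per kilobase and Hk2 1265 ± 370.0 in Tg-TAC, against 1351 ± 88.4 for Hk1 and 1938 ± 131 for Hk2 in Con-Sham. Of the tested members the lowest were the bifunctional enzymes Pfkfb3 and Pfkfb4, with 56.9 ± 18.2 and 27.2 ± 4.91 per kilobase in Con-Sham.

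**Figure D2:**
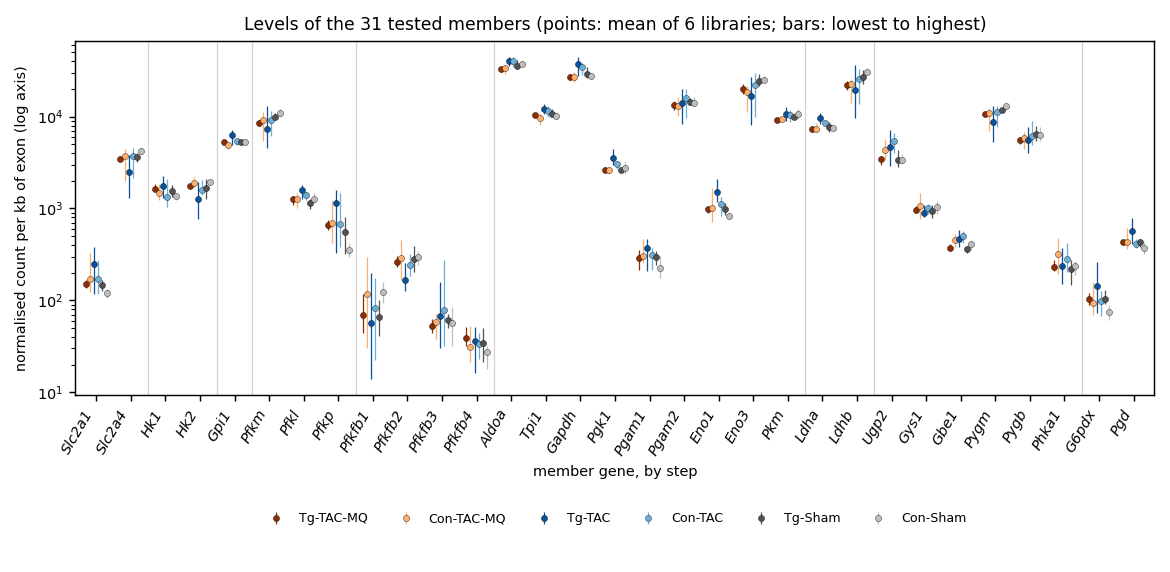
Normalised count per kilobase of exon (log axis) of the 31 tested members in the 6 groups, points being the mean of 6 libraries and bars running from the lowest to the highest library. Aldoa, Ldhb, Gapdh and Eno3 are at the top in Con-Sham and Pfkfb3 and Pfkfb4 at the bottom.

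Both glucose transporters differed in Tg-TAC, in opposite directions. Slc2a4 (ENSMUSG00000018566, mm39 chromosome 11, 69833365 to 69839014) encodes GLUT4. Slc2a4 counts spanned 9208 to 10519.5 (median 9766) in Tg-TAC-MQ and 5635 to 12389.6 (median 11474) in Con-TAC-MQ. With vehicle after TAC, Slc2a4 spanned 3672 to 10667 (median 7155) in Tg-TAC and 6001 to 12831 (median 11235) in Con-TAC. After sham surgery it spanned 9023 to 11169 (median 10305) in Tg-Sham and 10828 to 12660.1 (median 11928) in Con-Sham. It was lower in Tg-TAC than in Tg-Sham (log2 -0.64, SE 0.18, adjusted p = 0.0149; 5 of 6 libraries) and than in Con-TAC (log2 -0.64, SE 0.18, adjusted p = 0.0326; 5 of 6), and it was higher in Tg-TAC-MQ than in Tg-TAC (log2 0.57, SE 0.18, adjusted p = 0.0262; 6 of 6). The groups overlapped in each comparison: replicate 6 of Tg-TAC, with 10667, was at the level of the sham hearts, and replicate 6 of Con-TAC, with 6001, was below the other 5 Con-TAC libraries. Slc2a1 (ENSMUSG00000028645, mm39 chromosome 4, 118965908 to 118995180) encodes GLUT1, the transporter that does not depend on insulin. It ran from 379 to 1250.3 (median 738) in Tg-TAC and from 414 to 544 (median 489) in Tg-Sham. It was higher in Tg-TAC (log2 0.66, SE 0.22, adjusted p = 0.034; 5 of 6 libraries). Under MitoQ it ran from 449 to 538 (median 499) in Tg-TAC-MQ, below the Tg-TAC median and lower in the test (log2 -0.61, SE 0.22, adjusted p = 0.0477; 6 of 6). Replicate 3 of Con-TAC-MQ had 1078 counts of Slc2a1 and 5635 of Slc2a4, the highest and the lowest of its group. The Slc2a1 call against Tg-Sham was lost in 6 of the 12 fits that left out 1 library, and that between Tg-TAC-MQ and Tg-TAC in 10 of 12. Without replicate 4 of Tg-TAC the Slc2a4 call against Tg-Sham was lost (adjusted p = 0.0587), and those against Con-TAC and between Tg-TAC-MQ and Tg-TAC were lost in 7 and 3 of the 12 fits that left out 1 library.

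The hexokinases, which trap glucose in the cell as glucose 6-phosphate, were called in different comparisons, Hk2 between Tg-TAC and Tg-Sham and between Tg-TAC-MQ and Tg-TAC, and Hk1 between Tg-TAC and Con-TAC. Hk2 (ENSMUSG00000000628, mm39 chromosome 6, 82702006 to 82751435) is the isoenzyme of insulin-sensitive muscle. Counts of Hk2 spanned 9402 to 10471 (median 9826) in Tg-TAC-MQ and 9548 to 12421 (median 10385) in Con-TAC-MQ. In vehicle-treated TAC hearts Hk2 spanned 4358 to 10778 (median 6909.9) in Tg-TAC and 7877 to 11405 (median 8709) in Con-TAC. In sham hearts they spanned 7069 to 11859.6 (median 9504) in Tg-Sham and 10004 to 11817 (median 11019.9) in Con-Sham. It was lower in Tg-TAC than in Tg-Sham (log2 -0.45, SE 0.13, adjusted p = 0.0146; 5 of 6 libraries) and higher in Tg-TAC-MQ than in Tg-TAC (log2 0.52, SE 0.13, adjusted p = 0.00491; 6 of 6). The 5 other Tg-TAC libraries reached at most 7211, below all 6 Tg-TAC-MQ libraries, and replicate 6 of Tg-TAC was above all of them. The Hk2 call against Tg-Sham was lost without replicate 4 of Tg-TAC (adjusted p = 0.0573). Hk1 (ENSMUSG00000037012, mm39 chromosome 10, 62104634 to 62215687) is the isoenzyme of most tissues. Hk1 counts spanned 7620.4 to 8992 (median 7833) in Tg-TAC-MQ and 6073 to 9026 (median 7189.9) in Con-TAC-MQ. Vehicle-treated TAC hearts had Hk1 counts of 6372 to 11005 (median 8055) in Tg-TAC and 4991 to 10266 (median 5795) in Con-TAC. Sham hearts had Hk1 counts of 6543 to 8670.0 (median 7811) in Tg-Sham and 6068 to 7023 (median 6621) in Con-Sham. Hk1 was higher in Tg-TAC than in Con-TAC (log2 0.44, SE 0.12, adjusted p = 0.0351; 6 of 6), and 8 of the 12 fits that left out 1 library lost this call. Replicate 6 of Con-TAC had 10266, above the other 5 Con-TAC libraries, and without it and replicate 6 of Tg-TAC the difference was log2 0.66. Both replicates were set aside after their values were seen, so that value is a description. Gpi1, the isomerase that follows, averaged 15097 ± 367 in Tg-TAC-MQ, 17985 ± 2679 in Tg-TAC and 15136 ± 693 in Tg-Sham (SD, n = 6). It was higher in Tg-TAC than in Tg-Sham (log2 0.24, SE 0.07, adjusted p = 0.0267) and lower in Tg-TAC-MQ than in Tg-TAC (log2 -0.24, SE 0.07, adjusted p = 0.0238). These calls were lost in 6 and 3 of the 12 fits that left out 1 library.

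**Figure D3:**
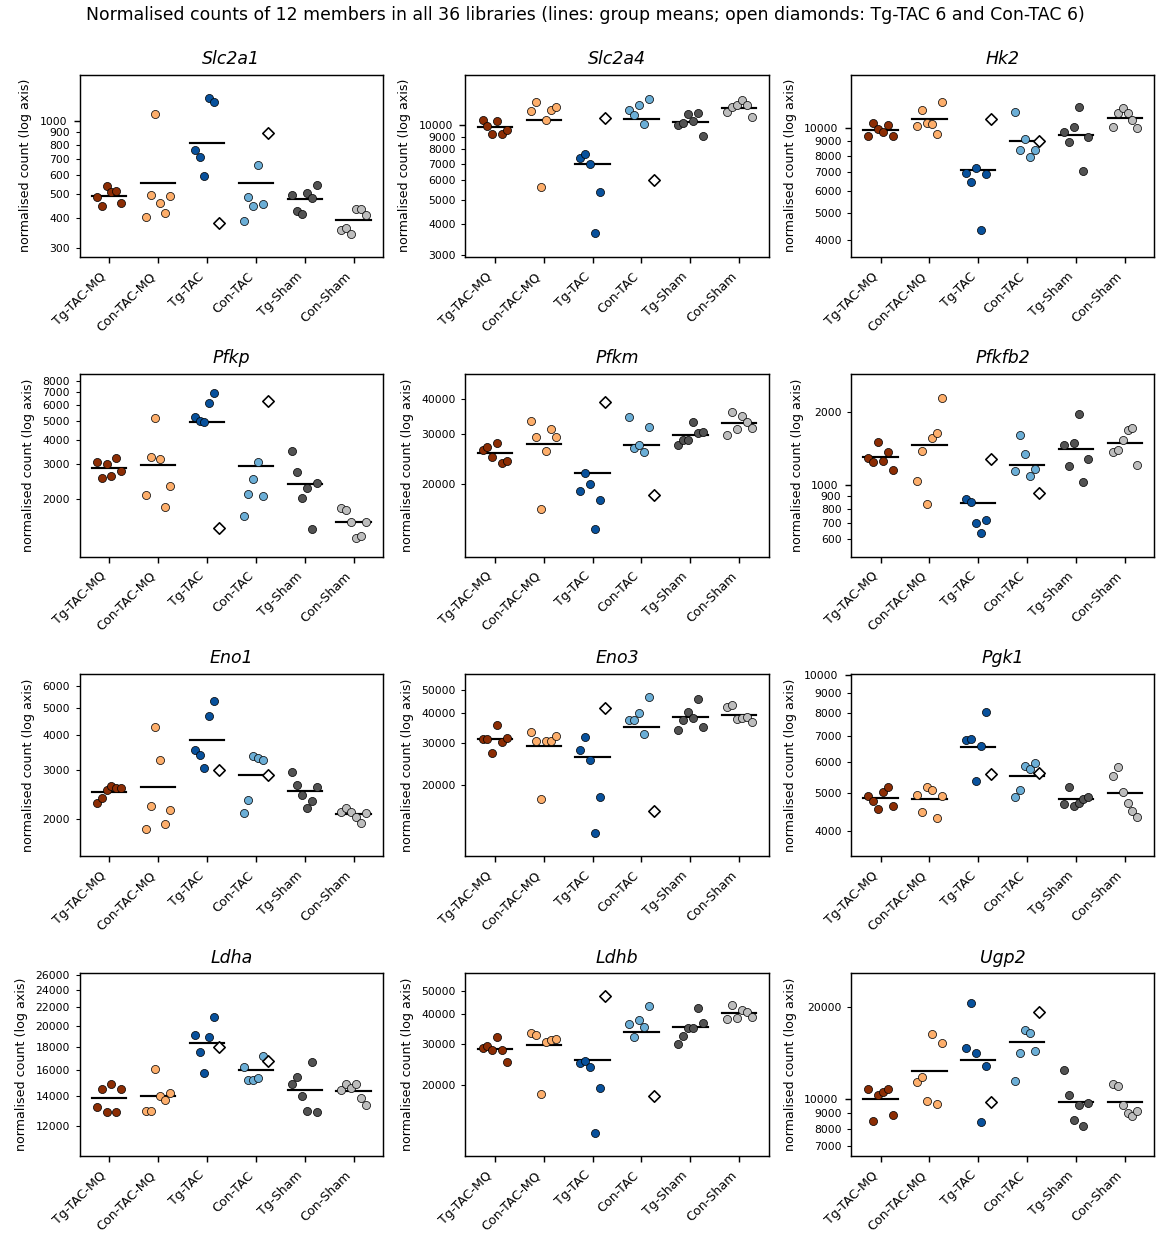
Normalised counts (log axes, a scale for each gene) of 12 members in each of the 36 libraries, 6 per group, with a line at the group mean and open diamonds for replicate 6 of Tg-TAC and of Con-TAC. The other 5 Tg-TAC libraries are low for Slc2a4, Hk2, Pfkm and Pfkfb2 and high for Slc2a1 and Pfkp. The diamond of Tg-TAC is on the other side of the Tg-Sham mean for Slc2a1, Slc2a4, Hk2, Pfkp and Pfkm.

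Phosphofructokinase, the committed step of glycolysis, has isoenzymes that differed in opposite directions. The liver form Pfkl and the platelet form Pfkp were higher in Tg-TAC than in Tg-Sham, and the muscle form Pfkm was lower. The liver form, Pfkl, is ENSMUSG00000020277, mm39 chromosome 10, 77822781 to 77845917. Pfkl counts spanned 4112 to 5054 (median 4816) in Tg-TAC-MQ and 3749 to 5454 (median 4932) in Con-TAC-MQ. After TAC with vehicle, Pfkl spanned 4741 to 6794 (median 5917) in Tg-TAC and 4561 to 5703 (median 5343) in Con-TAC. In sham hearts Pfkl spanned 3663 to 4773 (median 4309) in Tg-Sham and 4240.1 to 5547 (median 4551) in Con-Sham. The difference was log2 0.46 between Tg-TAC and Tg-Sham (adjusted p = 0.00194, higher in 6 of 6 libraries) and -0.33 between Tg-TAC-MQ and Tg-TAC (adjusted p = 0.0128, lower in 6 of 6). The ranges of Tg-TAC and Tg-Sham met between the lowest Tg-TAC and the highest Tg-Sham library. Pfkm (ENSMUSG00000033065, mm39 chromosome 15, 97990470 to 98030332) is the form of adult muscle. Pfkm counts spanned 23679 to 27834 (median 25596) in Tg-TAC-MQ and 16236 to 33323 (median 29278) in Con-TAC-MQ. In TAC hearts given vehicle, Pfkm spanned 13777 to 39124 (median 19413) in Tg-TAC and 18249.5 to 34384 (median 27059.6) in Con-TAC. In sham hearts Pfkm spanned 27508 to 33122 (median 29407) in Tg-Sham and 29876 to 35956 (median 32387) in Con-Sham. It was lower in Tg-TAC than in Tg-Sham (log2 -0.52, SE 0.16, adjusted p = 0.0271; 5 of 6 libraries). Replicate 6 of Tg-TAC, with 39124, was the highest of all 36 libraries. Pfkp ran from 1419.8 to 6899 (median 5087) in Tg-TAC and from 1390.4 to 3511 (median 2320.3) in Tg-Sham (log2 0.95, SE 0.30, adjusted p = 0.0263; 5 of 6 libraries). This was the largest difference among the called members of that comparison. Replicate 6 of Tg-TAC had 1419.8 and replicate 6 of Con-TAC 6270.3, each beyond the other 5 of its group. Leaving out 1 library lost the Pfkp call in 5 of 12 fits, replicates 1, 4 and 5 of Tg-TAC and 3 and 5 of Tg-Sham being those left out, and the Pfkm call in 4 of 12 (replicates 1, 4 and 5 of Tg-TAC and 4 of Tg-Sham).

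The bifunctional enzymes that set fructose 2,6-bisphosphate, the activator of phosphofructokinase, are encoded by Pfkfb1 to Pfkfb4, and Pfkfb2 is the heart isoform. Pfkfb2 is at mm39 chromosome 1, 130616919 to 130656990 (ENSMUSG00000026409). Pfkfb2 counts spanned 1158 to 1509 (median 1276) in Tg-TAC-MQ and 839 to 2293 (median 1472) in Con-TAC-MQ. Under TAC without MitoQ, Pfkfb2 spanned 634 to 1279 (median 787) in Tg-TAC and 929.9 to 1616 (median 1159) in Con-TAC. In sham hearts Pfkfb2 spanned 1033 to 1969 (median 1373) in Tg-Sham and 1216 to 1727 (median 1471) in Con-Sham. It was lower in Tg-TAC than in Tg-Sham (log2 -0.74, SE 0.18, adjusted p = 0.00527; 6 of 6) and higher in Tg-TAC-MQ than in Tg-TAC (log2 0.66, SE 0.18, adjusted p = 0.00959; 6 of 6). The 6 libraries of Tg-TAC lay below the Tg-Sham mean, and replicate 6 was the highest of them with 1279. Pfkfb1, the liver and muscle isoform, averaged 117 ± 141 in Tg-TAC and 133 ± 42.1 in Tg-Sham, with no call (log2 -0.74, SE 0.50, adjusted p = 0.322). Pfkfb3, the inducible isoform, was listed from 165 to 886 (median 316) in Tg-TAC and from 178 to 1534 (median 197) in Con-TAC, where the highest value belonged to replicate 6. Pfkfb4 had group means of 94.8 to 137, and neither gene passed in any of the 7 comparisons.

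In the later part of glycolysis Gapdh, Pgk1 and the ubiquitous enolase Eno1 were higher in Tg-TAC than in Tg-Sham, the muscle enolase Eno3 was lower, and Aldoa, Tpi1, Pgam1, Pgam2 and Pkm did not pass the test. Pgk1 (ENSMUSG00000062070, mm39 chromosome X, 105230706 to 105247305) makes the first ATP of the pathway. Pgk1 counts spanned 4567 to 5171 (median 4842) in Tg-TAC-MQ and 4317 to 5173 (median 4928) in Con-TAC-MQ. TAC hearts given vehicle had Pgk1 counts of 5375 to 8043 (median 6697) in Tg-TAC and 4902 to 5953 (median 5687) in Con-TAC. In sham hearts Pgk1 spanned 4646 to 5182 (median 4775) in Tg-Sham and 4356 to 5842 (median 4882) in Con-Sham. All 6 Tg-TAC libraries were above all 6 Tg-Sham libraries (log2 0.43, SE 0.08, adjusted p = 0.00119), and all 6 Tg-TAC-MQ libraries were below all 6 Tg-TAC libraries (log2 -0.42, SE 0.08, adjusted p = 0.000795). Neither call was lost in any fit that left out 1 library of the comparison. Eno1 (ENSMUSG00000063524, mm39 chromosome 4, 150321178 to 150333336) is the ubiquitous enolase. Eno1 counts spanned 2288 to 2625 (median 2558) in Tg-TAC-MQ and 1838 to 4259 (median 2189.7) in Con-TAC-MQ. Eno1 after TAC with vehicle spanned 2992 to 5301 (median 3467) in Tg-TAC and 2094 to 3375 (median 3066) in Con-TAC. In sham hearts Eno1 spanned 2187 to 2937 (median 2518) in Tg-Sham and 1936 to 2198 (median 2114) in Con-Sham. The groups did not overlap between Tg-TAC and Tg-Sham (log2 0.57, SE 0.15, adjusted p = 0.0112) nor between Tg-TAC-MQ and Tg-TAC (log2 -0.58, SE 0.15, adjusted p = 0.00897). Eno3, the muscle enolase, ran from 12652 to 42192 (median 26819) in Tg-TAC and from 34105 to 45864 (median 37773) in Tg-Sham (log2 -0.65, SE 0.21, adjusted p = 0.0309; 5 of 6 libraries), a call lost in 5 of the 12 fits that left out 1 library and by edgeR.

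Gapdh (ENSMUSG00000057666, mm39 chromosome 6, 125138678 to 125143430), the dehydrogenase often used as a reference gene, differed in 3 comparisons. Gapdh counts spanned 37844 to 43937 (median 40990.1) in Tg-TAC-MQ and 35284 to 45533 (median 40196) in Con-TAC-MQ. Gapdh in vehicle-treated TAC hearts spanned 41450.0 to 66587 (median 56835) in Tg-TAC and 42314 to 56948 (median 52164) in Con-TAC. In sham hearts Gapdh spanned 39259 to 52220.0 (median 42755) in Tg-Sham and 40224 to 43168 (median 42228) in Con-Sham. It was higher in Tg-TAC than in Tg-Sham (log2 0.34, SE 0.10, adjusted p = 0.0193; 5 of 6), lower in Tg-TAC-MQ than in Tg-TAC (log2 -0.43, SE 0.10, adjusted p = 0.00382; 6 of 6) and lower in Con-TAC-MQ than in Con-TAC (log2 -0.35, SE 0.10, adjusted p = 0.0471; 6 of 6). The call against Tg-Sham was lost without replicate 1, 2 or 5 of Tg-TAC or replicate 4 of Tg-Sham, 4 of the 12 fits that left out 1 library. The genome holds many near-identical processed copies of Gapdh, and Eno1b is an intronless copy of Eno1. The 3 Gapdh copies listed averaged at most 6.15 normalised counts over the 36 libraries and Eno1b averaged 168.0, so shared reads make the Gapdh and Eno1 values uncertain by an amount the table does not give. Tpi1, the triose phosphate isomerase, averaged 17058 ± 1610.4 in Con-TAC-MQ and 20565 ± 2272 in Con-TAC and was lower in Con-TAC-MQ (log2 -0.27, SE 0.08, adjusted p = 0.0498); like the Gapdh call there, this one was lost in 9 of the 12 fits that left out 1 library. Aldoa averaged 59909 ± 2801 in Tg-TAC-MQ and 73212 ± 6696 in Tg-TAC, with no overlap of the groups (log2 -0.29, SE 0.08, adjusted p = 0.0154). Pkm, the pyruvate kinase of muscle, averaged 23598 ± 815 in Tg-TAC-MQ and 27702 ± 3245 in Tg-TAC (log2 -0.22, SE 0.08, adjusted p = 0.0359). That call was lost in 8 of the 12 fits that left out 1 library. In the fit with the name number's class as covariate, whose term for 20 or 21 rests on replicate 6 of Con-TAC, the difference was 0.070. The phosphoglycerate mutases did not pass in any of the 7 comparisons: Pgam1, the ubiquitous form, averaged 655 ± 166 in Tg-TAC and 527 ± 62.3 in Tg-Sham (log2 0.27, SE 0.18, adjusted p = 0.294), and Pgam2, the muscle form, 11858 ± 3102 in Tg-TAC and 12210.4 ± 707 in Tg-Sham (log2 -0.09, SE 0.14, adjusted p = 0.722).

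Lactate dehydrogenase interconverts pyruvate and lactate as a tetramer of A and B subunits, the B subunit prevailing in the adult heart. Ldha (ENSMUSG00000063229, mm39 chromosome 7, 46490899 to 46505051) encodes the A subunit. Ldha counts spanned 12915 to 14886 (median 13879.5) in Tg-TAC-MQ and 12960.4 to 16118 (median 13885) in Con-TAC-MQ. For TAC and vehicle the Ldha counts were 15792 to 20914 (median 18448) in Tg-TAC and 15164 to 17182 (median 15818) in Con-TAC. In sham hearts Ldha spanned 12908 to 16643 (median 14452) in Tg-Sham and 13398 to 14913 (median 14533) in Con-Sham. It was higher in Tg-TAC than in Tg-Sham (log2 0.34, SE 0.07, adjusted p = 0.00264; 6 of 6) and lower in Tg-TAC-MQ than in Tg-TAC (log2 -0.41, SE 0.07, adjusted p = 0.000426; 6 of 6), the MitoQ difference with the smallest adjusted p of any member and no overlap of the groups. Con-TAC and Con-Sham did not overlap either, but the difference of log2 0.15 there missed the threshold (adjusted p = 0.201). Ldhb (ENSMUSG00000030246, mm39 chromosome 6, 142435975 to 142453683) encodes the B subunit. Ldhb counts spanned 25160.5 to 31946 (median 28464) in Tg-TAC-MQ and 18292 to 33247 (median 31203) in Con-TAC-MQ. Ldhb with TAC and vehicle spanned 12552 to 47458 (median 24338) in Tg-TAC and 18046 to 43079.5 (median 35712) in Con-TAC. In sham hearts Ldhb spanned 29857 to 42264 (median 34857) in Tg-Sham and 38164 to 43617 (median 39851) in Con-Sham. It was lower in Tg-TAC than in Tg-Sham (log2 -0.56, SE 0.19, adjusted p = 0.0409; 5 of 6), a call lost in 10 of the 12 fits that left out 1 library and by edgeR. Replicate 6 of Tg-TAC had 47458, the highest of all 36 libraries, and the other 5 Tg-TAC libraries reached at most 25209.

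Of the glycogen genes Ugp2, Gbe1 and Pygm were called, not all in the same comparison. Ugp2, which makes the UDP-glucose that glycogen is built from, ran from 11468 to 19228 (median 15402) in Con-TAC and from 8803 to 11181 (median 9345) in Con-Sham. All 6 Con-TAC libraries were above all 6 Con-Sham libraries (log2 0.64, SE 0.16, adjusted p = 0.0177). The call was lost without replicate 4 of Con-TAC (adjusted p = 0.0581) and among the libraries named 7 to 14. Ugp2 averaged 13406 ± 4287 in Tg-TAC and 9783 ± 1521 in Tg-Sham, and there the difference did not pass (log2 0.41, SE 0.16, adjusted p = 0.0656). Gbe1, the branching enzyme, averaged 1579.8 ± 103 in Tg-TAC-MQ, 1965 ± 324 in Tg-TAC and 1567 ± 114 in Tg-Sham. It was higher in Tg-TAC than in Tg-Sham (log2 0.31, SE 0.09, adjusted p = 0.0177) and lower in Tg-TAC-MQ than in Tg-TAC (log2 -0.30, SE 0.09, adjusted p = 0.0207), and both calls were lost without replicate 5 of Tg-TAC (adjusted p = 0.0688 and 0.0791). Pygm, the muscle glycogen phosphorylase, ran from 15099 to 37978 (median 23806) in Tg-TAC and from 32476 to 35148 (median 33444) in Tg-Sham and was lower in Tg-TAC (log2 -0.49, SE 0.14, adjusted p = 0.0185; 5 of 6 libraries), a call lost without replicate 4 of Tg-TAC (adjusted p = 0.0721). The glycogen synthase Gys1, the brain phosphorylase Pygb and the phosphorylase kinase subunit Phka1 did not pass in any of the 7 comparisons. In Tg-TAC against Tg-Sham their differences were -0.09, -0.22 and 0.10 on the log2 scale. In the pentose phosphate pathway, Pgd averaged 958 ± 31.1 in Tg-TAC-MQ, 1267 ± 266 in Tg-TAC, 919.7 ± 99 in Con-TAC and 954 ± 77.4 in Tg-Sham. It was higher in Tg-TAC than in Tg-Sham (log2 0.39, SE 0.11, adjusted p = 0.017) and than in Con-TAC (log2 0.44, SE 0.11, adjusted p = 0.0216), and lower in Tg-TAC-MQ than in Tg-TAC (log2 -0.38, SE 0.11, adjusted p = 0.0179). Without replicate 4 of Tg-TAC all 3 Pgd calls were lost (adjusted p = 0.0666 against Tg-Sham, 0.0853 against Con-TAC and 0.0678 between Tg-TAC-MQ and Tg-TAC), and that against Con-TAC also without replicate 3 or 5 of Con-TAC. G6pdx, the first enzyme of that pathway, ran from 239 to 339.7 (median 274) in Tg-Sham and from 161 to 238 (median 209) in Con-Sham, with no overlap of the groups and no call (adjusted p = 0.302).

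Ratios of paired isoenzyme genes within a library do not depend on its size factor, and 3 of 63 such comparisons (9 pairs in 7 comparisons) passed an exact permutation test, two-sided, at an adjusted p of 0.0455, the smallest p that 6 against 6 libraries allow being 0.00216. The log2 ratio of Pfkl to Pfkm averaged -1.81 ± 0.57 in Tg-TAC and -2.79 ± 0.13 in Tg-Sham (SD, n = 6), a difference of 0.98. That of Ldha to Ldhb averaged -1.03 ± 0.46 in Con-TAC and -1.49 ± 0.07 in Con-Sham, a difference of 0.46. That of Hk1 to Hk2 averaged -0.32 ± 0.19 in Tg-Sham and -0.73 ± 0.03 in Con-Sham, a difference of 0.41. Each of the 3 had this smallest p, which by itself requires that the groups do not overlap. The ubiquitous form was relatively higher in the Tg or TAC hearts. Replicate 6 of Con-TAC had a log2 ratio of Ldha to Ldhb of -0.11, against at most -1.08 in the other Con-TAC libraries, and without it the difference was 0.28. Each of the 3 calls was lost in some fits without 1 library: 5 of 12 for Pfkl to Pfkm, 6 of 12 for Ldha to Ldhb and 10 of 12 for Hk1 to Hk2. In all 63 comparisons, 25 passed without replicate 6 of Tg-TAC, 9 without replicate 5 of Tg-Sham, 8 without replicate 1 of Con-TAC and 6 without replicate 3 of Con-TAC-MQ, while 0 passed without any 1 of the Con-Sham libraries or of replicates 1, 2, 4 and 6 of Tg-Sham. For Slc2a1 to Slc2a4, Pfkp to Pfkm and Eno1 to Eno3 the differences between Tg-TAC and Tg-Sham were 1.30, 1.48 and 1.22 and missed the threshold. Without replicate 6 of Tg-TAC and of Con-TAC they were 1.64, 1.99 and 1.44 (exact permutation test, adjusted p = 0.00909 for each). These libraries were set aside after the values of the members were seen. The ratio of Aldoc to Aldoa rests on a few reads of Aldoc per library and passed in no comparison.

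**Figure D4:**
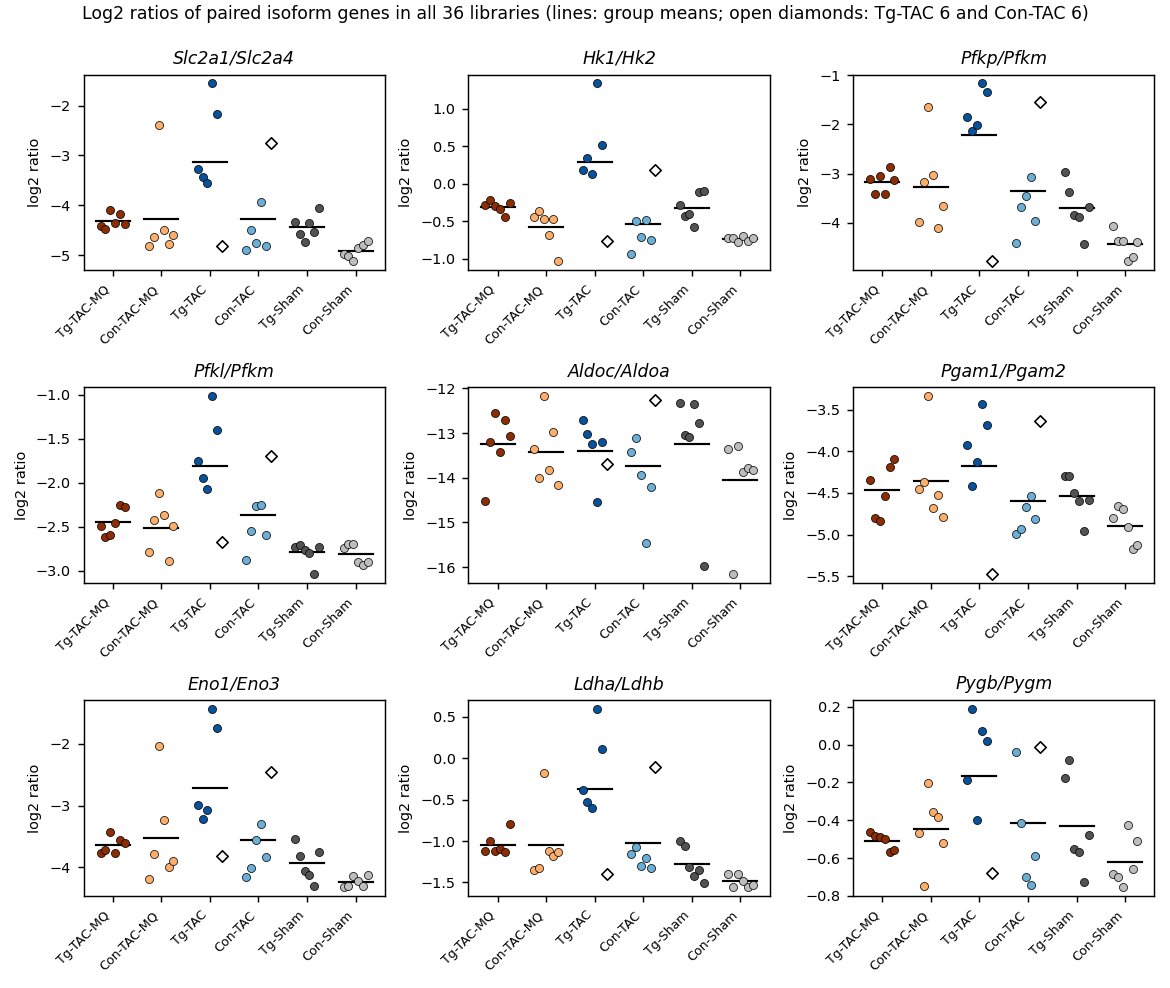
Log2 ratio of the ubiquitous or fetal isoform gene to the muscle or heart isoform gene for 9 pairs, 1 point per library (36 libraries, 6 per group), with a line at the group mean and open diamonds for replicate 6 of Tg-TAC and of Con-TAC. For Pfkl to Pfkm all 6 Tg-TAC libraries are above all 6 Tg-Sham libraries.

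The comparison of genotypes after TAC with vehicle depended on replicate 6 of each group. With all 12 libraries 3 members were called. Among the 10 libraries named 7 to 14 (5 against 5), which leaves out replicate 6 of either group by its name, 9 members were higher and 10 lower in Tg-TAC than in Con-TAC, with 25.2% of all genes called in either direction. These are the same 10 libraries that remain when both replicates 6 are set aside for their values, and the choice was made with earlier results of these data known, so the values among them are a description. Higher among these 10 libraries were Pfkp (log2 1.33, SE 0.16, adjusted p = 7.13e-05), Slc2a1 (log2 0.85, SE 0.18, adjusted p = 0.00291), G6pdx, Hk1 (log2 0.66, SE 0.10, adjusted p = 0.000228), Pgd, Eno1, Pgam1, Gpi1 and Pgk1. Lower were Pfkfb1 (log2 -1.63, SE 0.36, adjusted p = 0.00328), Slc2a4 (log2 -0.93, SE 0.15, adjusted p = 0.000409), Ldhb (log2 -0.84, SE 0.15, adjusted p = 0.000936), Eno3, Pfkfb2, Pfkm, Pygm, Hk2, Pgam2 and Gys1. At the phosphofructokinase step Pfkp was 4938 to 6899 in these 5 Tg-TAC libraries and 1626 to 3063 in these 5 Con-TAC libraries. Pfkm was 13777 to 21902 in these Tg-TAC libraries and 25829 to 34384 in these Con-TAC libraries, so neither gene overlapped. Of the 9 isoenzyme ratios 7 differed between these 5 and 5 libraries (exact permutation test, adjusted p = 0.0408 for each, the smallest p being 0.00794), from 0.87 for Pfkl to Pfkm to 2.00 for Pfkp to Pfkm. Tg-TAC against Tg-Sham within the same name numbers (5 against 3 libraries) gave 9 members higher and 8 lower, with 17.5% of all genes called. Con-TAC against Con-Sham (5 against 3) gave none past the threshold (smallest adjusted p of a member by limma = 0.235), with 0.147% of all genes called. The difference between these TAC effects of the genotypes was called for 0 members in that fit, with 0.0% of all genes called. Without replicate 6 of Tg-TAC and of Con-TAC it was also called for 0 members, with 0.479% of all genes called. More calls in Tg hearts is therefore not a shown difference of effect here either. The count between Tg-TAC and Con-TAC was 16 without replicate 6 of Tg-TAC alone and 13 without that of Con-TAC alone. It was 1 without replicate 1 or 5 of Tg-TAC or 1 or 2 of Con-TAC, and 0 without replicate 4 of Tg-TAC or 3 or 5 of Con-TAC. Of the macrophage markers 5 of 8, and of the fibroblast markers 3 of 8, were higher in Tg-TAC than in Con-TAC over all 12 libraries. Their summed levels were 7832 to 19508 in Tg-TAC and 6972 to 10272 in Con-TAC for macrophages and 37422 to 118267 in Tg-TAC and 29261 to 61164 in Con-TAC for fibroblasts. Their part in the members' differences was not tested.

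**Figure D5:**
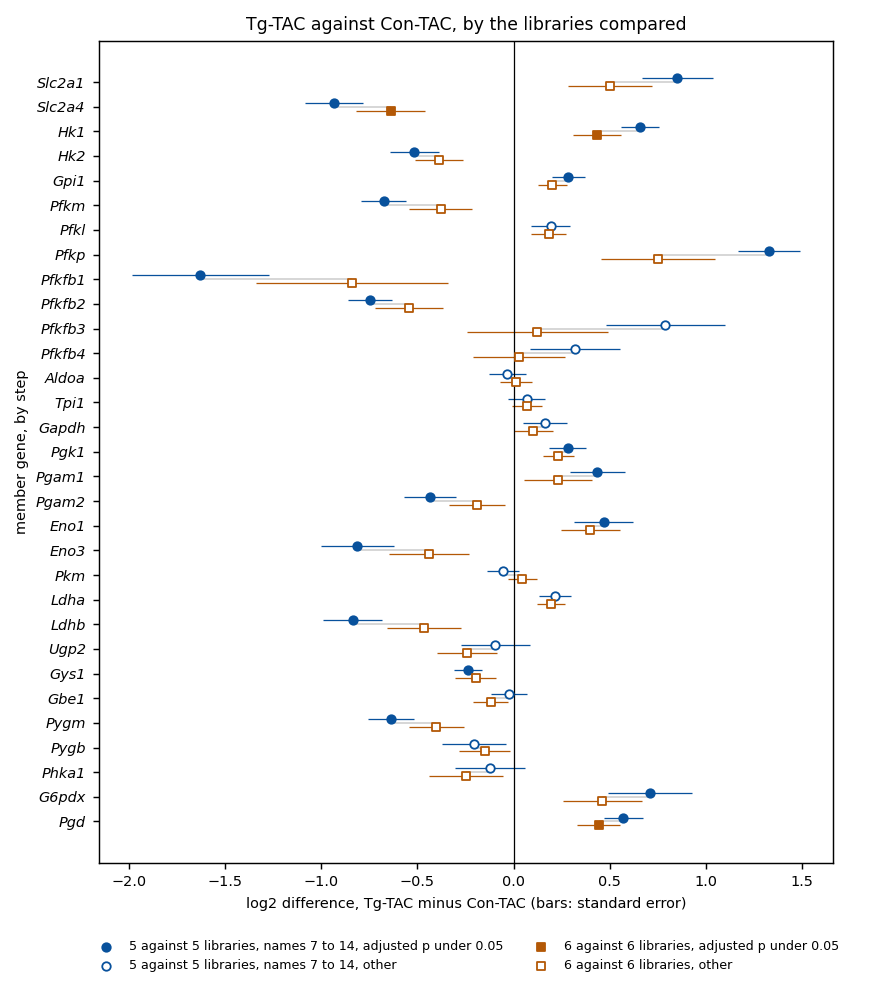
Log2 difference of Tg-TAC minus Con-TAC for the 31 tested members, with standard errors, from 6 against 6 libraries (squares, 3 filled) and from the 5 against 5 libraries named 7 to 14 (circles, 19 filled); filled symbols have a limma adjusted p under 0.05.

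Whether MitoQ acted differently in Tg and Con hearts was asked with an interaction term. Over all libraries limma called 0 of 31 members and 0 genes in all, and edgeR called 0 members. By limma 3 members (Slc2a4, Ldha and Pgd) and 1376 of all 16273 genes had an unadjusted p under 0.05. Without replicate 6 of Tg-TAC and of Con-TAC, 5 members were called higher and 4 lower, with 8.6% of all genes called. The largest interactions there, Tg effect minus Con effect, were Pfkp (log2 -1.30, SE 0.29, adjusted p = 0.00712), Eno3 (log2 0.94, SE 0.23, adjusted p = 0.0112), Slc2a1 (log2 -0.94, SE 0.26, adjusted p = 0.0241), Slc2a4 (log2 0.87, SE 0.21, adjusted p = 0.0112) and Ldhb (log2 0.81, SE 0.20, adjusted p = 0.0112). These libraries were set aside after their values were seen, so the interaction values are a description. Replicate 3 of Con-TAC-MQ, the highest or lowest of its group for 26 of 31 members, was kept. It stood apart for Eno3, Slc2a1, Slc2a4 and Ldhb, each on the side that enlarges the interaction. Its Slc2a4 was 5635, against 10473 to 12389.6 in the other Con-TAC-MQ libraries. The part of this library in the interactions was not tested. In the same fit 8 members were higher and 16 lower in Tg-TAC-MQ than in Tg-TAC, where 29.9% of all genes were called. In Con-TAC-MQ against Con-TAC 1 member was higher and 4 were lower, with 13.2% of all genes called. Over all libraries Slc2a1 had an SD of 34.2 in Tg-TAC-MQ and 344 in Tg-TAC, and Pfkm one of 1667 in Tg-TAC-MQ and 8881 in Tg-TAC.

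The genes around the pathway were counted on 6 lists of 73 further genes, of which 69 were tested. Hkdc1 and Gyg1 were not analysed here and Pklr and Gys2 were below the filter. In Tg-TAC against Tg-Sham, 4 of the 69 were higher and 20 lower (7.91% and 8.78% of all genes), with a median difference of -0.12. Of 10 genes of glucose uptake and insulin signalling 4 were lower, of 13 other glycolytic genes 2 were lower, and of 18 other glycogen genes 3 were higher and 4 lower. Of 12 genes of the pentose phosphate pathway and other branches 3 were lower, of 5 genes of lactate and pyruvate transport and use 1 was higher and 2 lower, and of 11 regulators 5 were lower. Insr, the insulin receptor, averaged 3194 in Tg-TAC and 4632 in Tg-Sham (log2 -0.54, SE 0.09, adjusted p = 0.000525). Ldhd, a mitochondrial D-lactate dehydrogenase, was lower (log2 -0.72, SE 0.15, adjusted p = 0.00214), and Ppp1r3c, a subunit that targets protein phosphatase 1 to glycogen, was higher (log2 0.82, SE 0.17, adjusted p = 0.00236). In Tg-TAC-MQ against Tg-TAC 17 of the 69 were higher and 5 lower (9.89% and 7.44% of all genes), with a median difference of 0.12. Prkaa2, the muscle catalytic subunit of AMP-activated kinase, averaged 5716 in Tg-TAC-MQ and 3464 in Tg-TAC (log2 0.75, SE 0.13, adjusted p = 0.000338). Insr (log2 0.51, SE 0.09, adjusted p = 0.000389), Ogt, which adds O-linked N-acetylglucosamine to proteins (log2 0.48, SE 0.09, adjusted p = 0.000909), and the transcription factor gene Mef2a (log2 0.62, SE 0.12, adjusted p = 0.0011) were higher. In Con-TAC against Con-Sham 1 was higher and 3 lower (2.64% and 2.65% of all genes), in Tg-TAC against Con-TAC 1 was higher and 5 lower (3.18% and 3.28%), and in Con-TAC-MQ against Con-TAC 5 were higher and 0 lower (1.92% and 1.31%). None passed in Tg-Sham against Con-Sham or in Tg-TAC-MQ against Con-TAC-MQ, where the smallest limma adjusted p was 0.0559 in the sham hearts and 0.672 in the MitoQ hearts.

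Promoters are shown for the 5 members whose calls in Tg-TAC against Tg-Sham and in Tg-TAC-MQ against Tg-TAC both held in every fit that left out 1 library: Eno1, Ldha, Pgk1 and Pfkl, higher in Tg-TAC and lower in Tg-TAC-MQ, and Pfkfb2, which did the reverse. The sequences are RefSeq windows of build GRCm38.p6 from 250 bases before to 50 after a gene's start, 300 bases each, written along the gene's strand, and the coordinates are of that build, not of the deposited table. Capitals mark ACGTG or GCGTG on either strand, the core letters to which hypoxia-inducible factors are known to bind, and CACGTG, the palindromic E-box, holds ACGTG on both strands.
Eno1, chr4:150236947-150237246, plus strand: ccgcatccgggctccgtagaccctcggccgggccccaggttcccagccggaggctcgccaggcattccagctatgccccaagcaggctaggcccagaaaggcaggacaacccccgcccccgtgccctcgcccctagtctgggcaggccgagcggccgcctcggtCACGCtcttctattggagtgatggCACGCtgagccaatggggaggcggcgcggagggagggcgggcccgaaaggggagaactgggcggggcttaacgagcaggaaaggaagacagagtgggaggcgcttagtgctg
Ldha, chr7:46845554-46845853, plus strand: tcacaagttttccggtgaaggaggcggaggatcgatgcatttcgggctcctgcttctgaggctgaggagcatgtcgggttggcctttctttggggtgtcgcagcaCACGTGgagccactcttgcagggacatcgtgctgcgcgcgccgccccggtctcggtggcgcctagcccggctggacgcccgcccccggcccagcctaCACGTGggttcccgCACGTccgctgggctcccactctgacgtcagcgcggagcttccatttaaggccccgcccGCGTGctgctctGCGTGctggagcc
Pgk1, chrX:106186850-106187149, plus strand: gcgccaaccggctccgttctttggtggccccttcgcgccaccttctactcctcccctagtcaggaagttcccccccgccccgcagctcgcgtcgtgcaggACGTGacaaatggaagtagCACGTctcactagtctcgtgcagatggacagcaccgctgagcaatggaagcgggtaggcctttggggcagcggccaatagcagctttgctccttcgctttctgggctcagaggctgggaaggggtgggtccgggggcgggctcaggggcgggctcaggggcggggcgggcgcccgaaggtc
Pfkl, chr10:78009758-78010057, minus strand: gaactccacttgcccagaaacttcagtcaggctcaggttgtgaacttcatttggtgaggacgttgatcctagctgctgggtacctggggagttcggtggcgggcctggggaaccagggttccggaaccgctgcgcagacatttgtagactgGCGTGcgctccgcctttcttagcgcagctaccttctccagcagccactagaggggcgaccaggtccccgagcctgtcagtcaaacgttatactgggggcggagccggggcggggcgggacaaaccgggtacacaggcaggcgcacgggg
Pfkfb2, chr1:130714527-130714826, minus strand: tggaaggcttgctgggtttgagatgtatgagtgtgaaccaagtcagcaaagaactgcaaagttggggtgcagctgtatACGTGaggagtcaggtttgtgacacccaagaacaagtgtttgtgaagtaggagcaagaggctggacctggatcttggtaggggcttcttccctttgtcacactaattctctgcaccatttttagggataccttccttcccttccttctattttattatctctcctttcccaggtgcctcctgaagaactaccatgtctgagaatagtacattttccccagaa

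Of these windows that of Ldha held 7 matches, those of Eno1 and Pgk1 2 each and those of Pfkl and Pfkfb2 1 each. Only 1 window per gene is shown, and Eno1, Ldha and Pfkfb2 have others, each also with a match. The Pfkfb2 window shown has a GC content of 46.0%. Its others have 66.0% and 53.0%, and that with 66.0% also holds the palindromic E-box. The count of 1 for Pfkfb2 is therefore that of the window shown, not of the gene. A RefSeq window was found for 31 of the 32 members, all but Slc2a4, with 50 windows in all. ACGTG or GCGTG stood in 36 of the 50 (72.0%), against 43.8% of all 32851 windows, and the median GC content was 59.5% against 52.7%. Windows of members higher in Tg-TAC than in Tg-Sham held a match in 11 of 14 and windows of members lower in 10 of 11. Several windows can belong to 1 gene, and by gene the counts were 8 of 10 and 6 of 6. Their median GC content was 61.5% for the higher and 57.0% for the lower members. GGGCGG, a GC box that overlaps neither motif, stood in 10 of 14 windows of higher and in 2 of 11 windows of lower members (35.7% of all windows), and by gene in 9 of 10 and 2 of 6. Of the other letters scanned, CACGTG stood in 1 of 14 and 2 of 11 windows (7.2% of all windows). AAGGTCA stood in 1 of 14 and 0 of 11 (4.7% of all windows). These are descriptions of letters in the windows, and nothing about binding was measured.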

How the data were processed

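RNA was isolated from snap-frozen whole hearts with a Qiagen fibrous tissue kit and made into directional NEB libraries, per the labels' protocols. The submitters' processing notes name Trim Galore, STAR and the build mm39. The sources used here do not give their versions, the read counter or the normaliser. The deposited signal values are read counts of genes over a size factor that is constant within a library, since every library's values came out as whole reads (100% within 0.01 read). The 4 rows without a gene symbol held at most 0.0106% of a library's reads and were left out.

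Differences were tested with limma 3.58.1 in R 4.3.3 (trend, robust) on log2(value + 1), in 1 fit of all 36 libraries with 30 residual degrees of freedom, over the 16273 genes that reached 10 in 6 or more libraries. Every adjusted p for a gene is Benjamini-Hochberg over those genes, called under 0.05, two-sided. edgeR 4.0.16 (quasi-likelihood) on the recovered reads was an alternative. Isoform ratios and Sirt4 were tested by exact permutation (Python 3.11.15, scipy 1.17.1). The limma procedure was tested on simulated data in which every group had the spread of Con-Sham. That test therefore does not cover the wider spread of members such as Pfkm in Tg-TAC. Exon lengths were from a GRCm38 annotation matched by gene identifier, and RefSeq promoters are on GRCm38.p6.

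The members, lists and tests were chosen with earlier results of these data known. Each member called in a comparison was named, full values were given for the 8 with the smallest adjusted p and for the isoform pairs that passed, and up to 6 genes per comparison could be named from the other lists. The labels number mice within groups and say no more on their origin. Same-numbered libraries did not deviate together, so no pairing was used.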

Additional observations from a re-analysis of the deposited data

Results flagged for a closer look

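In 24 of the 186 combinations of a tested member and a group, 1 of the 6 libraries lay so far from the rest that the gap to its nearest neighbour, as a share of the group's range, exceeded Dixon's critical value. Chance alone gives about 1 in 20. Values are normalised counts, each against the range of the other 5 libraries.

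Replicate 3 of Con-TAC-MQ stood apart for 8 members. In that library the values were Pgam1 at 834 against 448 to 537, and Slc2a4 at 5635 against 10473 to 12389.6. Further values there were Slc2a1 at 1078 against 403 to 498, and Pgd at 1366 against 796 to 935. Further values there were Ldhb at 18292 against 30519.7 to 33247, and G6pdx at 422 against 186 to 272. Further values there were Pygm at 19881 against 30217 to 35974, and Eno3 at 17481 against 30558 to 33364.

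Replicate 6 of Tg-TAC stood apart for 5 members, with Gys1 at 4019 against 3002 to 3323, and Pfkp at 1419.8 against 4938 to 6899. It had Pfkfb1 at 400.0 against 28.6 to 95.2, and Ldhb at 47458 against 12552 to 25209. It had Pfkm at 39124 against 13777 to 21902. Replicate 6 of Con-TAC stood apart for 3 members, with Pfkp at 6270.3 against 1626 to 3063, and Pfkfb3 at 1534 against 178 to 324. It had Hk1 at 10266 against 4991 to 5986. The name number is 29 in replicate 6 of Tg-TAC and 20 in replicate 6 of Con-TAC, and 7 to 14 in the other 5 libraries of each group.

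Replicate 2 of Con-Sham had Pgam2 at 13724 against 11072 to 11872, and Tpi1 at 19724 against 17089 to 17939. It had Pfkfb4 at 62.7 against 93.1 to 109.9. Replicate 5 of Tg-Sham had Tpi1 at 21445 against 18163 to 19249, and Aldoa at 74970.2 against 60015 to 65596. Replicate 1 of Con-TAC had Hk2 at 11405 against 7877 to 9158. Replicate 4 of Tg-TAC had Pfkfb3 at 886 against 165 to 382. Replicate 2 of Tg-TAC-MQ had Hk1 at 8992 against 7620.4 to 8087.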

How the results depend on the processing

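Counts of called members are given here in the order Tg-TAC-MQ against Tg-TAC (14), Con-TAC-MQ against Con-TAC (2), Tg-TAC against Con-TAC (3), Tg-TAC against Tg-Sham (17) and Con-TAC against Con-Sham (1), where a setting moved them by more than 1.5 times. Leaving out 1 library at a time gave 9 to 22, 0 to 5, 0 to 16, 8 to 19 and 0 to 5, and 0 to 25 isoform ratios against 3. Fitting only the libraries compared gave 8, 0, 0, 4 and 2, and 3 in Tg-Sham against Con-Sham, where the count was 0. Array weights gave 24, 8 and 16 in the first 3 comparisons, 9 in Con-TAC against Con-Sham, 3 in Tg-Sham against Con-Sham and 1 in Tg-TAC-MQ against Con-TAC-MQ. An equal sum of nuclear-genome reads gave 9 in Tg-TAC-MQ against Tg-TAC, 0 in Con-TAC-MQ against Con-TAC and 5 in Con-TAC against Con-Sham. Of all 16273 genes, 3283, 819 and 1116 were called in these comparisons. A covariate for the name number's class gave 1 in Con-TAC-MQ against Con-TAC, 15 in Tg-TAC against Con-TAC and 0 in Con-TAC against Con-Sham, where 1.38%, 20.4% and 1.02% of all genes were called. It turned Pkm in Tg-TAC-MQ against Tg-TAC to 0.070. The covariate's term for 20 or 21 rests on replicate 6 of Con-TAC alone. A minimum of 50 gave 5 in Tg-TAC against Con-TAC and 2 in Con-TAC against Con-Sham. A pseudocount of 10 gave 1, and no filter, TMM factors and edgeR 0 each, in Con-TAC-MQ against Con-TAC, and edgeR gave 2 in Con-TAC against Con-Sham. Only libraries named 7 to 14 gave 19 in Tg-TAC against Con-TAC (25.2% of all genes), 0 in Con-TAC against Con-Sham (0.147% of all genes) and 7 isoform ratios. Without 4 libraries that earlier results doubted (replicates 4 and 6 of Tg-TAC, 5 of Con-TAC-MQ and 2 of Con-Sham) the counts were 0 in Con-TAC-MQ against Con-TAC (3.3% of all genes), 12 in Tg-TAC against Con-TAC (14.0%), 4 in Con-TAC against Con-Sham (9.8%) and 17 isoform ratios. Without replicate 6 of Tg-TAC and of Con-TAC, a choice made after seeing the data, the counts were 24, 5 and 19 for the first 3 comparisons (29.9%, 13.2% and 30.1% of all genes). They were 2 in Con-TAC against Con-Sham (8.67%), 9 for the MitoQ interaction (8.6%, and 0 members with all libraries) and 28 isoform ratios. For the other settings and the fits that left out 1 library, the share of all genes called is not given here. The cause of these moves was not tested.

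Of the 37 called differences, 37 kept direction and call with array weights and with a minimum of 50, 36 with a pseudocount of 10, 34 with TMM factors and without the 4 doubted libraries, 33 with no filter, 32 by edgeR, 31 with the replicate block, 28 with an equal nuclear sum, 23 with the name number's class as a covariate, where 13 lost the call and 1 turned, and 13 when only the libraries compared were fitted. The replicate numbers did not pair the libraries: of 42 same-numbered pairs the correlations of deviations ran from -0.483 to 0.311, with 6 over 0.1. With the replicate number as a block the counts were 12, 0, 2, 16 and 1. At these depths Aldoc was too low to test.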
